A study of Homo sapiens with 18 samples.

Results

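The tubulin genes described here are 4 alpha-tubulin genes (*TUBA1A*, *TUBA1B*, *TUBA1C* and *TUBA4A*) and 6 beta-tubulin genes (*TUBB*, *TUBB2A*, *TUBB2B*, *TUBB3*, *TUBB4B* and *TUBB6*), 10 of the 26941 genes in the count tables. They were chosen by symbol as one family, and the family was picked because *TUBA1A* was lower with *SOX11* siRNA in every cell line. The siRNA response of *TUBA1A* is therefore given as a description with no test, and the other 9 genes carry tests. RNA was sequenced from 18 samples of REH, 697 and RCH-ACV, which are established lines of B-cell precursor acute lymphoblastic leukemia. REH carries the ETV6-RUNX1 fusion. In each line 3 samples received *SOX11* siRNA and 3 received control siRNA at 300 nM by nucleofection, and all were collected after 48 h. The sample names call the *SOX11* siRNA samples KO, although the treatment lowers *SOX11* mRNA for a time and leaves the gene in place. Control samples also went through nucleofection and carry an siRNA, so no group is untreated, and each line stands for itself alone.

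Microtubules are hollow filaments built from dimers of 1 alpha-tubulin and 1 beta-tubulin, and they form the mitotic spindle and the tracks along which motor proteins carry cargo. Humans encode several alpha- and beta-tubulins whose proteins are nearly alike and differ mainly at the C-terminal tail, where many modifying enzymes act. *TUBA1B* and *TUBB* are common forms of dividing cells, whereas *TUBA1A* and *TUBB3* are known above all from developing neurons. Free tubulin dimers also lower the stability of tubulin mRNAs during translation, which ties the mRNA levels of the family members together. *SOX11* is a transcription factor of the developing nervous system that is not normally active in B cells.

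Because the genes are close copies, the sequence decides how far reads can be assigned to one of them. Positions are on hg19 from the GENCODE annotation lifted to that build, and sequences are given on the transcribed strand. *TUBA1A* (chr12:49578578-49582863, minus strand), *TUBA1B* (chr12:49521565-49525178, minus strand) and *TUBA1C* (chr12:49658865-49668383, plus strand) lie side by side on chromosome 12, each with 4 exons. The coding sequences of *TUBA1A* and *TUBA1B* were identical at 97.2% of 1353 positions, with 38 differences, those of *TUBA1A* and *TUBA1C* at 96.1%, and those of *TUBA1B* and *TUBA1C* at 97.1%. The longest coding stretch without a difference was 221 bases for *TUBA1A* and *TUBA1B* and 326 bases for *TUBA1B* and *TUBA1C*, so no short read inside it can be told apart between the genes of a pair.

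*TUBB2A* (chr6:3153900-3157778) and *TUBB2B* (chr6:3224511-3227887), both on the minus strand, were closer still, with 98.2% of 1335 coding positions identical, 24 differences and 725 bases in a row alike. Their most different 90-base coding window runs from exon 2 into exon 3 and therefore spans an intron in the genome (chr6:3155908-3156305 in *TUBB2A* and chr6:3226442-3226822 in *TUBB2B*). It is shown because it holds 12 of the 24 differences, in capitals, and so carries much of what tells the low counts of *TUBB2A* from *TUBB2B*.
TUBB2A: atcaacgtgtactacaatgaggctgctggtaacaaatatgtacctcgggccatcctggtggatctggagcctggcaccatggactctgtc
TUBB2B: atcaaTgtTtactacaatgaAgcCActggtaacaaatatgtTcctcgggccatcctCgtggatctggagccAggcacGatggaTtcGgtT

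To see how much of each transcript is its own, all windows of 50 and of 75 bases along 1 transcript per gene were looked up in the transcripts of every other gene, leaving out genes that share the locus. Of the 50-base windows of *TUBA1A*, 52.7% occurred in no other gene, 25.0% in 1 other gene and 22.2% in 2 or more others, and 37.5% were shared with *TUBA1B*. For *TUBA1B* 37.3% and for *TUBB2A* 35.4% occurred in no other gene, whereas it was 73.3% for *TUBA1C* and 80.7% for *TUBB*. *TUBA4A*, *TUBB3*, *TUBB4B* and *TUBB6* were between 89.6% and 98.9% their own, not counting genes that share the locus. The study discarded reads that aligned to more than 2 places, so reads from windows found in 2 or more other genes could be lost. Whether shared sequence shifts the levels of *TUBA1A*, *TUBA1B* and *TUBB2A*, and in which direction, was not tested. How reads with 2 places were counted and the read length are not given in the sources used here.

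**Figure D1:**
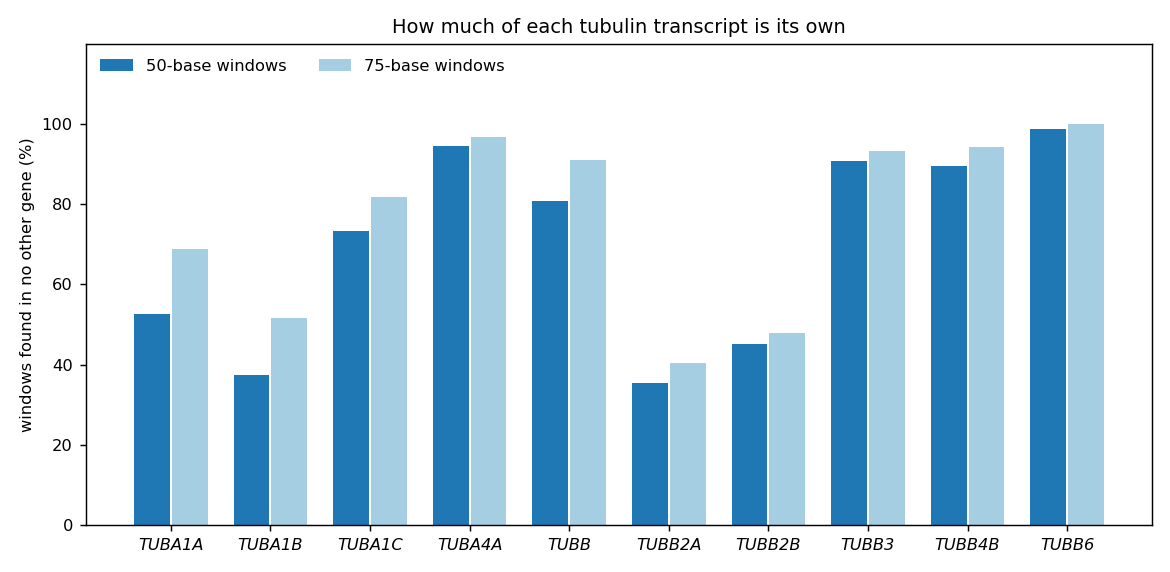
Percent of 50-base (dark) and 75-base (light) windows along 1 transcript of each tubulin gene that occurred in no transcript of another gene, leaving out genes that share the locus. *TUBB2A* and *TUBA1B* had the lowest shares (35.4% and 37.3% of 50-base windows) and *TUBB6* the highest (98.9%).

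The total count per sample lay between 7039594 and 16592492, and the 10 tubulin genes held between 0.44% and 0.516% of it. A count of 3, taken as the smallest that shows a gene, stood for 0.181 to 0.426 CPM on the unscaled library totals depending on the sample, a floor that covers counting error only. All other levels are CPM (counts relative to the library total) with totals scaled by TMM. *SOX11* itself fell to 56.4% of the control level in REH, 53.0% in 697 and 62.7% in RCH-ACV. Among 9 markers of B-cell precursors, 8 had a mean above 1 CPM in REH and 9 did in 697 and RCH-ACV, and the 4 T-cell markers together stayed at or below 0.287 CPM in every sample. Among 5 myeloid markers, 1 had a mean above 1 CPM in each group, and their sum ranged from 2.35 CPM in 697 to 31.0 CPM in RCH-ACV. Each line was tested alone with edgeR's quasi-likelihood test, and a gene was called where its p-value, adjusted by Benjamini-Hochberg over all tested genes, was under 0.05. The study's methods call the samples independent biological replicates without saying what separated them, so the p-values measure the spread between these samples. In bulk RNA, fewer cells with a transcript and less transcript per cell cannot be told apart.

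Among the 10 genes, tubulin RNA in the control siRNA samples was dominated by *TUBB* and *TUBA1B* in every line. Levels of different genes are compared as RPKM, which divides by the length of the annotated main transcript, a length that may differ from that of the counted transcript. *TUBB* stood at 1237 ± 22.3 RPKM in REH, 1123 ± 17.0 in 697 and 1137 ± 32.4 in RCH-ACV (SD, n = 3 each). *TUBA1B* followed with 676 ± 10.2 RPKM in REH, 767 ± 8.93 in 697 and 799 ± 9.90 in RCH-ACV. *TUBB4B*, a beta-tubulin of most tissues, came next in each line with means of 151 to 265 RPKM, and then *TUBA1A* with 115 ± 4.60 RPKM in REH, 123 ± 8.45 in 697 and 128 ± 4.32 in RCH-ACV. *TUBA1C* followed it in each line, at 44.8 RPKM for REH, 59.5 for 697 and 60.0 for RCH-ACV. The ranges of these 5 genes over the 3 control samples did not touch each other in any line.

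Below the first 5 the order among the 10 genes depended on the line. In REH it went on with *TUBA4A* (3.61 RPKM), *TUBB2A* (1.37), *TUBB6* (0.144) and *TUBB3* (0.0677), and the ranges of *TUBB6* and *TUBB3* overlapped. In 697 *TUBB6* (44.2 RPKM) preceded *TUBB3* (3.62), *TUBB2A* (3.07) and *TUBA4A* (0.196). In RCH-ACV *TUBB6* (47.1 RPKM) preceded *TUBB3* (37.4), *TUBA4A* (4.42) and *TUBB2A* (2.24). *TUBB2B* had 1 count in 1 control sample of RCH-ACV and 0 in the other 8 control samples, and with 1 further count in a *SOX11* siRNA sample it was under the floor throughout. Since 59.5% of the 50-base windows of *TUBB2A* are shared with *TUBB2B*, these counts cannot fully separate that pair.

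**Figure D2:**
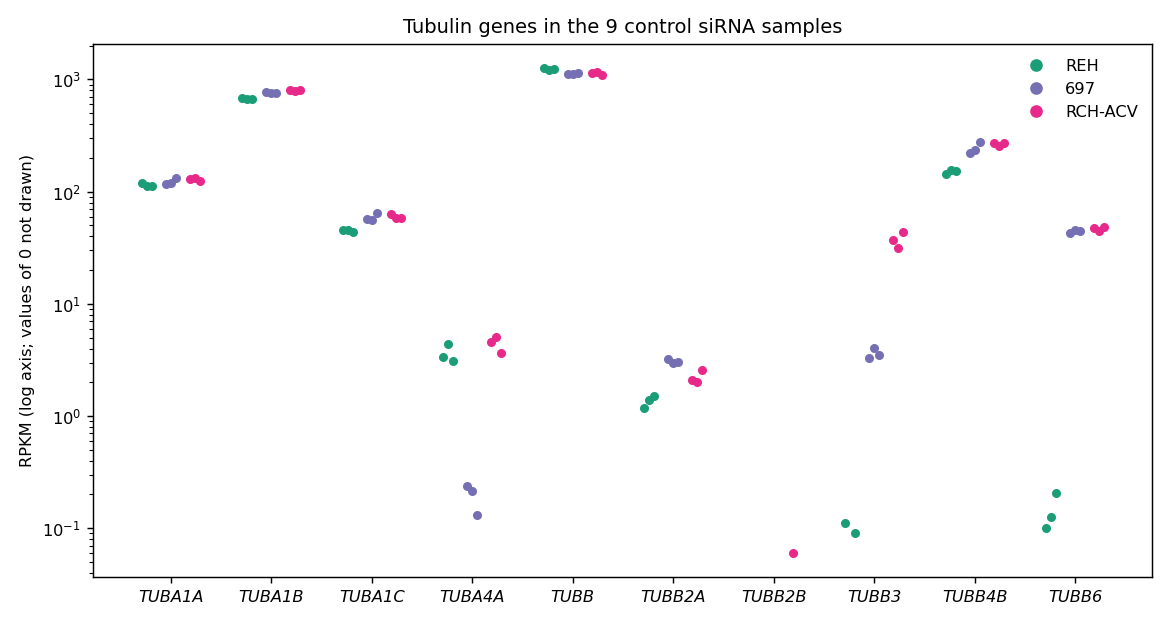
RPKM on a log axis of each tubulin gene in the 9 control siRNA samples, 1 point per sample and 1 colour per line. *TUBB* and *TUBA1B* lead in every line, while *TUBB6*, *TUBB3* and *TUBA4A* change place between lines. Samples at 0 are not drawn, which are 8 for *TUBB2B* and 1 REH sample for *TUBB3*.

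The lines were then compared gene by gene in the 9 control samples, in 1 fit with edgeR's quasi-likelihood test. A line and any batch of that line cannot be told apart in this comparison. Of 9 tubulin genes tested, 8 differed between REH and 697, where 76.2% of all tested genes did, 8 between REH and RCH-ACV, where 73.7% did, and 3 between 697 and RCH-ACV, where 64.2% did. With 9 genes tested, these counts single out nothing about the family.

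*TUBB6*, a beta-tubulin that is not made in all cells, was near 0 in REH and well above it in both other lines, as counted on the kept transcript. REH control samples held 2, 3 and 3 counts of it. The counts were 654, 581 and 619 in the 697 controls and 790, 644 and 787 in the RCH-ACV controls. The difference from REH passed the threshold against 697 (adjusted p = 7.55e-19) and RCH-ACV (adjusted p = 5.75e-19, both in the edgeR quasi-likelihood test), and the means of 697 and RCH-ACV, 83.1 and 88.5 CPM, did not (adjusted p = 0.179). With library size alone in place of TMM, 697 against RCH-ACV did pass (log2 difference -0.155, adjusted p = 0.035 in the edgeR quasi-likelihood test). No fold is given against REH, because its samples lay at or under 3 counts.

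A caution on *TUBB6* concerns 1 of its 8 RefSeq transcripts in the tables. NM_001303525 held 185 to 376 counts in the 6 REH samples, where the other 7 transcripts held 1 to 5. In 697 and RCH-ACV it held 376 to 941 counts, against 539 to 1582 for the others. Of 14 annotated *TUBB6* transcripts on the plus strand of chromosome 18, 2 run into exons of *AFG3L2*, a mitochondrial protease gene on the opposite strand that had 122 CPM in the REH controls. Which of them corresponds to NM_001303525, and whether counting used the strand, is not given in the sources used here, and the part of *AFG3L2* reads in these counts was not tested.

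*TUBB3*, the beta-tubulin used as a neuronal marker, was graded across the lines. REH controls held 2, 2 and 0 counts, 697 controls 46, 47 and 44, and RCH-ACV controls 554, 412 and 642. As levels these were 0.116, 6.17 and 63.8 CPM on average, and no samples of different lines overlapped. 697 against RCH-ACV differed by -3.38 on the log2 scale (standard error 0.14), 10.4-fold (adjusted p = 4.26e-13), and REH was lower than 697 (adjusted p = 3.52e-09) and RCH-ACV (adjusted p = 8.65e-16, all in the edgeR quasi-likelihood test). Of 6 other neuronal markers, 1 had a mean above 1 CPM in REH and in 697 and 3 did in RCH-ACV. *NEFL* was at 0 in all samples and *SNAP25* reached at most 0.26 CPM. *MAP2*, a dendritic microtubule-associated protein, ranged from 0 to 37.7 CPM over the 18 samples with a mean of 31.9 CPM in RCH-ACV, and *SYT1*, a synaptic vesicle protein, lay between 8.17 and 114 CPM. The summed level of the 6 in the controls was 9.32 to 10.4 CPM in REH, 100.7 to 111 in 697 and 98.1 to 111 in RCH-ACV, most of it *SYT1*. The part of neuronal genes in the *TUBB3* levels was not tested.

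*TUBA4A*, an alpha-tubulin of blood cells such as platelets, was low in 697 alone. The 697 controls held 4, 3 and 2 counts, whereas the REH controls held 72, 115 and 49 and the RCH-ACV controls 82, 80 and 64. The 697 level was lower than that of REH (adjusted p = 1.51e-09) and of RCH-ACV (adjusted p = 9.22e-10), and REH and RCH-ACV, at 7.39 and 9.06 CPM, did not differ at the threshold (adjusted p = 0.138, all in the edgeR quasi-likelihood test). *TUBA4A* overlaps *STK16* and *TUBA4B* on the opposite strand, and reads of these genes could not be set apart without the strand setting.

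The abundant members differed by less than a factor of 2 between lines. *TUBB4B* was lower in REH than in RCH-ACV by 0.82 on the log2 scale (standard error 0.07, adjusted p = 1.99e-09), and *TUBA1C* by 0.43 (standard error 0.06, adjusted p = 1.65e-06). *TUBA1B* was lower in REH by 0.26 (standard error 0.03, adjusted p = 9.04e-07) and *TUBB* higher in REH by 0.11 (standard error 0.03, adjusted p = 0.0052), both against RCH-ACV. *TUBA1A* was lower in REH than in RCH-ACV by 0.17 (standard error 0.05, adjusted p = 0.00842, all 5 in the edgeR quasi-likelihood test), and neither REH against 697 nor 697 against RCH-ACV passed the threshold for it. Calls for several genes depended on the scaling, among them *TUBA1A* and *TUBA1B* in the comparisons with REH. With library size alone in place of TMM the median of all genes moved on the log2 scale, by 0.13 for REH against 697 and by 0.07 for REH against RCH-ACV. *TUBA1B* in REH against 697 went from -0.19 (adjusted p = 2.36e-05) to -0.06 (adjusted p = 0.0525). *TUBA1A* in REH against RCH-ACV went from -0.17 to -0.10 (adjusted p = 0.122, all in the edgeR quasi-likelihood test).

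*TUBA1A* was lower in every *SOX11* siRNA sample than in every control sample of the same line, which is what the family was picked for. In REH its level was 201, 189 and 187 CPM with control siRNA and 171, 169 and 174 CPM with *SOX11* siRNA. In 697 it was 196, 198 and 221 CPM with control siRNA and 163, 165 and 154.5 CPM with *SOX11* siRNA. The RCH-ACV samples with *SOX11* siRNA held 150.4, 165.5 and 161 CPM, and the controls 214.5, 221 and 206.5 CPM. The gap between the groups was narrowest in REH. On the log2 scale the difference was -0.16 ± 0.04 for REH, -0.36 ± 0.06 for 697 and -0.42 ± 0.05 for RCH-ACV (± standard error), which left 89.4%, 78.2% and 74.5% of the control level.

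**Figure D3:**
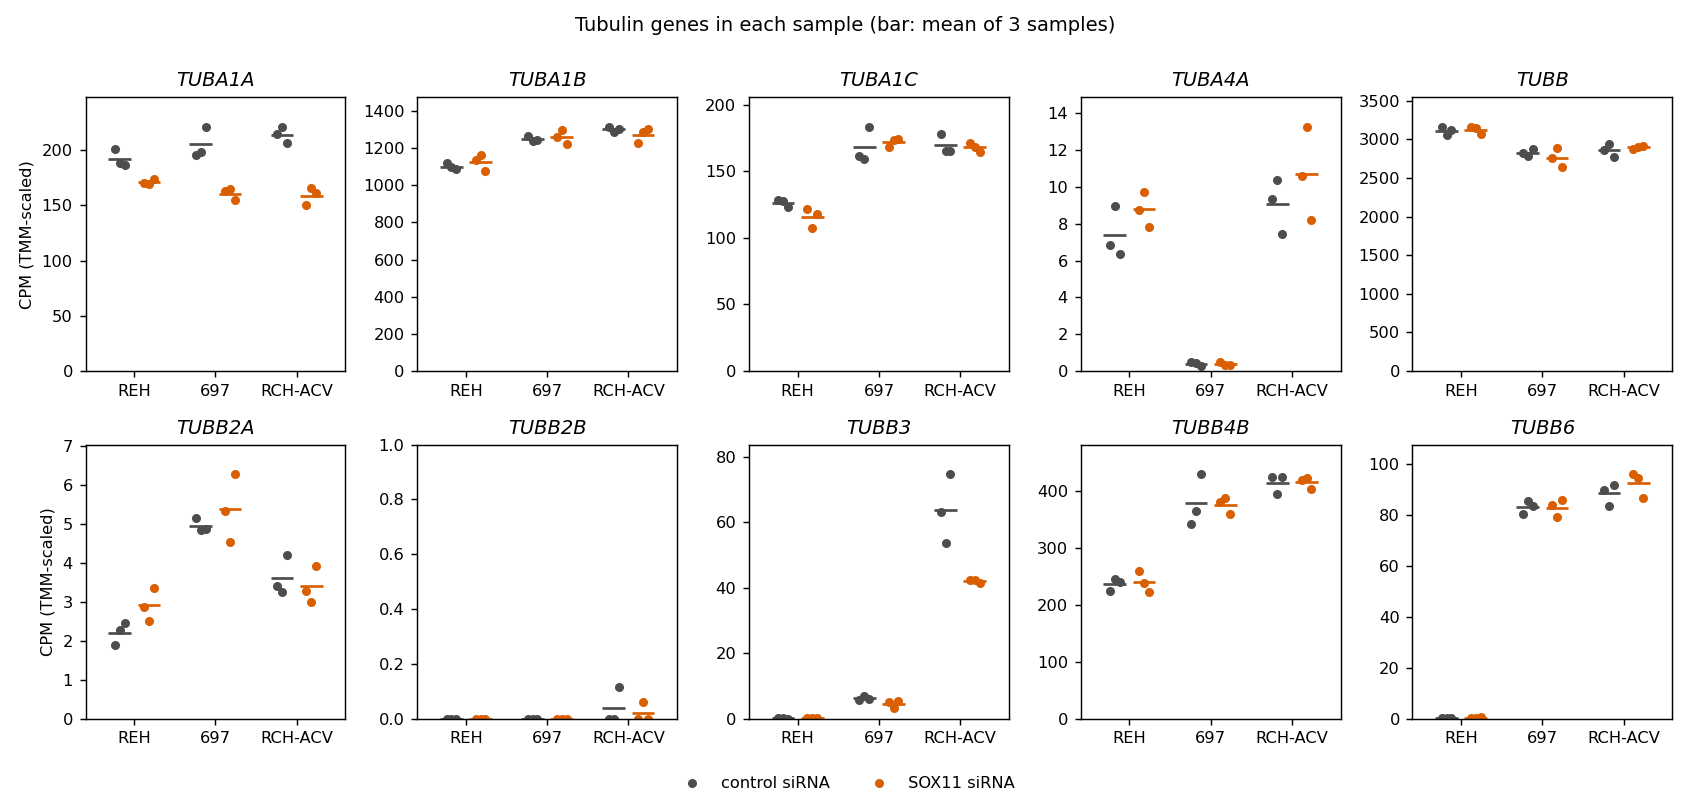
CPM of each tubulin gene in each of the 18 samples, with control siRNA in grey and *SOX11* siRNA in orange, and a bar at the mean of 3 samples. *TUBA1A* is lower with *SOX11* siRNA in each line, *TUBB3* is lower within RCH-ACV (42.0 against 63.8 CPM on average), and the most abundant genes, *TUBB* and *TUBA1B*, overlap between groups.

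*TUBA1A* was counted on 3 RefSeq transcripts whose counts differed by few reads, so the choice among them bears little on these values. In the tables the kept transcript NM_001270400 held 30288 counts over the 18 samples, NM_001270399 held 30216 and NM_006009 held 30092. *TUBA1A* lies within the span of the antisense gene *TUBA1B-AS1* and of longer *TUBA1C* transcripts, both on the plus strand, and their reads could not be set apart without the strand setting.

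The close copies *TUBA1B* and *TUBA1C* were read next, for shared reads or an opposite change. *TUBA1B* was 1117, 1096 and 1084 CPM with control siRNA and 1137, 1160 and 1078 CPM with *SOX11* siRNA in REH, and its groups overlapped in every line. The fitted log2 change was 0.04 for REH (adjusted p = 0.599), 0.01 for 697 (adjusted p = 0.987) and -0.03 for RCH-ACV (adjusted p = 0.616, all in the edgeR quasi-likelihood test). The 95% intervals allowed changes of *TUBA1B* from -1.8% to 7.4% in REH, -5.2% to 6.6% in 697 and -6.9% to 2.7% in RCH-ACV. The loss of *TUBA1A* was 20.9, 44.5 and 55.0 CPM in these lines, equal to 1.90%, 3.57% and 4.23% of the control level of *TUBA1B*. A rise of *TUBA1B* that matched the loss of *TUBA1A* read for read was thus within the interval in REH and 697 and above it in RCH-ACV.

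*TUBA1C* was 128, 128 and 123 CPM with control siRNA and 122, 107.5 and 118 CPM with *SOX11* siRNA in REH, so all *SOX11* siRNA samples lay below all controls there. Its log2 fold change of -0.12 in REH did not pass the threshold (adjusted p = 0.18), nor did 0.03 in 697 (adjusted p = 0.972) or -0.01 in RCH-ACV (adjusted p = 0.911, all in the edgeR quasi-likelihood test). *TUBA4A* had log2 fold changes of 0.20 in REH (95% interval -0.10 to 0.51, adjusted p = 0.541) and 0.30 in RCH-ACV (95% interval -0.07 to 0.66, adjusted p = 0.328, both in the edgeR quasi-likelihood test). In 697 it was too low to be tested, with 2 to 4 counts in each sample.

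The ratio of *TUBA1A* to *TUBA1B* within a library does not depend on the scaling between libraries. In REH there were 18, 17.2 and 17.2 *TUBA1A* counts per 100 *TUBA1B* counts with control siRNA and 15, 14.6 and 16.1 with *SOX11* siRNA. In 697 there were 15.5, 16 and 17.8 against 12.9, 12.7 and 12.7, and in RCH-ACV 16.3, 17.2 and 15.8 against 12.3, 12.9 and 12.4. The ratio was lower with *SOX11* siRNA in all samples of each line, as the choice of *TUBA1A* had fixed for its own level. Per length, *TUBA1A* made up 13.7% ± 0.31 of the alpha-tubulin level in REH controls and 12.2% ± 0.52 with *SOX11* siRNA, 12.9% ± 0.77 and 10.3% ± 0.12 in 697, and 12.9% ± 0.46 and 10.1% ± 0.24 in RCH-ACV (SD, n = 3 each).

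**Figure D4:**
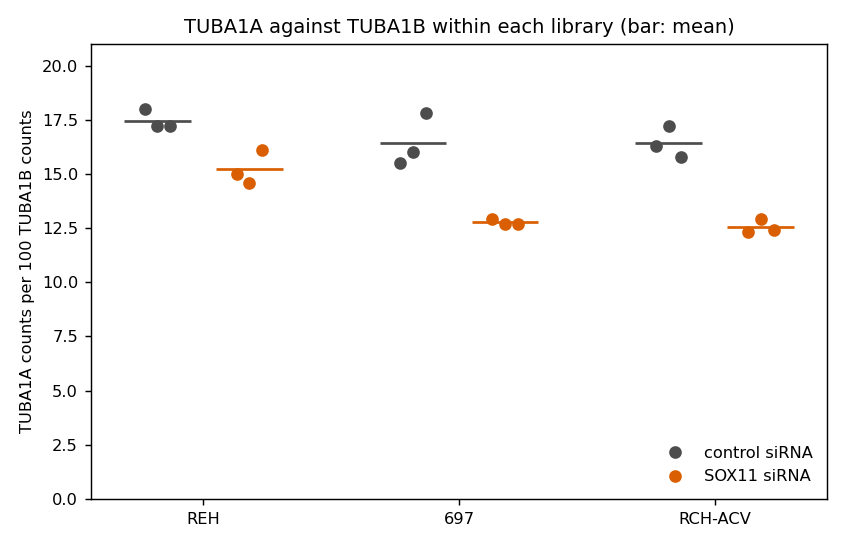
*TUBA1A* counts per 100 *TUBA1B* counts in each of the 18 libraries, with a bar at the mean of 3 samples, in grey for control siRNA and orange for *SOX11* siRNA. In each line the 3 *SOX11* siRNA libraries sit below the 3 controls, between 12.3 and 16.1 against 15.5 and 18 over all lines.

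The summed alpha-tubulin level, most of which is *TUBA1B*, changed little in REH and 697 and was lower in RCH-ACV. It was 839 ± 15.5 RPKM with control siRNA and 839 ± 23.8 with *SOX11* siRNA for REH, 950 ± 12.6 and 930 ± 25.6 for 697, and 992 ± 10.9 and 941 ± 27.1 for RCH-ACV (SD, n = 3 each). The difference was smaller than the larger SD in REH and 697 and larger than it in RCH-ACV. There the controls ranged from 984.6 to 1004 RPKM and the *SOX11* siRNA samples from 909.9 to 957.8, without overlap. *TUBA1A*, on which the family was picked, is part of this sum. The summed beta-tubulin level was 1390 ± 16.2 and 1399 ± 29.5 RPKM for REH, 1416 ± 44 and 1389 ± 53.9 for 697, and 1489 ± 16.1 and 1493 ± 5.55 for RCH-ACV, with differences below the larger SD in each. No test was made on these sums. They cover only the 10 genes, so a further beta-tubulin gene, *TUBB4A*, at a mean of 27.7 CPM in REH, is not in them.

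*TUBB3* fell in RCH-ACV. The controls held 63.1, 53.5 and 74.8 CPM and the *SOX11* siRNA samples 42.3, 42.3 and 41.5 CPM, so the groups did not overlap and the *SOX11* siRNA samples lay close together. The log2 fold change was -0.61 (standard error 0.09, 65.7% of control, adjusted p = 0.000618 in the edgeR quasi-likelihood test), and it stayed between -0.71 and -0.48 and past the threshold with each sample left out. In 697 *TUBB3* was 5.65, 6.90 and 5.95 CPM with control siRNA and 5.09, 3.13 and 5.39 CPM with *SOX11* siRNA. There too all *SOX11* siRNA samples lay below all controls, but with 27 to 48 counts per sample the log2 fold change of -0.44 (95% interval -0.93 to 0.05) did not pass the threshold (adjusted p = 0.675 in the edgeR quasi-likelihood test). *TUBB3* was not testable in REH. *TUBB3* overlaps another annotated protein-coding gene on the same strand, ENSG00000198211, and reads over bases they share cannot be told apart.

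The other beta-tubulin genes did not pass the threshold in any line. *TUBB* had log2 fold changes of 0.01, -0.03 and 0.02 in REH, 697 and RCH-ACV, with 95% intervals that together ran from -0.12 to 0.08. *TUBB4B* had 0.03, -0.01 and 0.00, with intervals from -0.19 to 0.17. *TUBB6* had -0.01 in 697 and 0.07 in RCH-ACV, with intervals from -0.14 to 0.19. *TUBB2A*, with 19 to 56 counts per sample, was 1.90, 2.27 and 2.46 CPM with control siRNA and 2.88, 2.5 and 3.35 CPM with *SOX11* siRNA in REH. These groups did not overlap, yet the log2 fold change of 0.43 had a 95% interval from -0.04 to 0.91 (adjusted p = 0.36 in the edgeR quasi-likelihood test), and it was 0.12 in 697 and -0.12 in RCH-ACV.

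**Figure D5:**
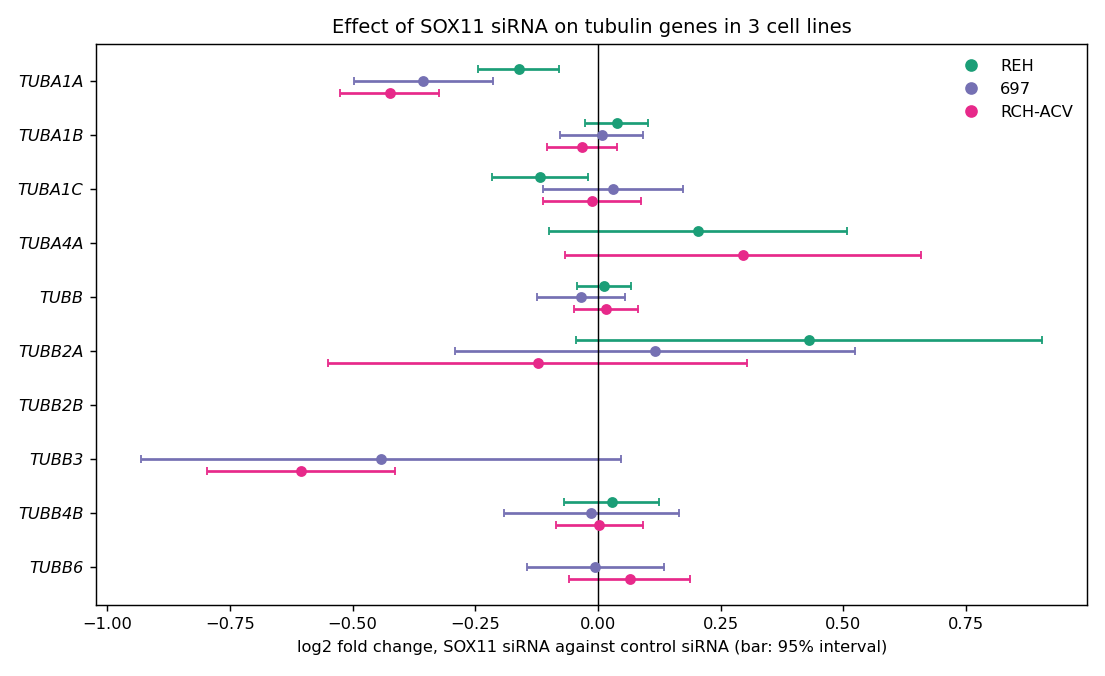
Log2 fold change of each tubulin gene with *SOX11* siRNA against control siRNA, 1 colour per line, with 95% intervals from edgeR's fit. *TUBA1A* lies below 0 in each line and *TUBB3* in RCH-ACV, the intervals of *TUBB*, *TUBB4B* and *TUBA1B* are narrow and cover 0, and genes too low to be tested have no point. The intervals of *TUBA1A* are a description and no test, since the family was picked on its decrease in every line.

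In counts, 7 tubulin genes were tested in REH, 8 in 697 and 9 in RCH-ACV. Besides *TUBA1A*, 0 passed in REH, where 4.65% of all tested genes did, 0 in 697, where 0.559% did, and 1, *TUBB3*, in RCH-ACV, where 7.51% did. At an unadjusted p under 0.05 these numbers were 1 in REH (*TUBA1C*), 0 in 697 and 1 in RCH-ACV by edgeR's quasi-likelihood test, and DESeq2 called 0, 0 and 1. With 6 to 8 genes tested, read against those shares, these counts single out nothing about the family. Whether the siRNA effect differed between lines was tested in 1 fit over the 18 samples for the members other than *TUBA1A*. Of 8 tested, 0 passed, with adjusted p-values from 0.681 to 1 (edgeR's quasi-likelihood test), 0 had an unadjusted p under 0.05, and DESeq2 called 0, whereas 0.734% of all genes passed. The decrease of *TUBB3* is therefore not shown to differ between 697 and RCH-ACV.

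Genes that work with tubulin were read from 6 lists with 114 genes, covering further tubulins, tubulin folding and degradation, tubulin-modifying enzymes, the gamma-tubulin ring complex that nucleates microtubules, microtubule-associated proteins and motors. In REH 1 of 95 tested genes was higher and 2 were lower, beside 4.65% of all tested genes, and DESeq2 called 0 of the 95. In 697 0 of 97 passed by edgeR's quasi-likelihood test, with 6 at an unadjusted p under 0.05 and 0 by DESeq2, beside 0.559% of all genes. In RCH-ACV 3 of 98 were higher and 7 lower, beside 7.51% of all genes, and DESeq2 called 6. At an unadjusted p under 0.05 by edgeR's quasi-likelihood test there were 10 in REH and 25 in RCH-ACV. The share of all genes at that unadjusted threshold is not given here for any line. The median log2 fold change over these genes was -0.016 for REH, -0.013 for 697 and -0.027 for RCH-ACV, against -0.002, -0.004 and 0.005 over all tested genes.

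*CCT2*, a subunit of the chaperonin that folds tubulin and actin, was lower by 0.13 in REH (adjusted p = 0.0244) and by 0.15 in RCH-ACV (adjusted p = 0.0176) on the log2 scale. *TBCD*, a cofactor that assembles the tubulin dimer, rose by 0.18 in RCH-ACV (adjusted p = 0.038), and *TTLL12*, of the tubulin tyrosine ligase-like family, by 0.24 (adjusted p = 0.0173, all in the edgeR quasi-likelihood test). *TUBB4A*, a beta-tubulin best known from the brain, was lower in REH by 0.32 (standard error 0.09, adjusted p = 0.0316 in the edgeR quasi-likelihood test) at a mean of 27.7 CPM. Neither this call nor that of *CCT2* in REH was made by DESeq2.

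Among microtubule-associated proteins in RCH-ACV, *MAP1B* changed by -0.45 (standard error 0.08, adjusted p = 0.00188) and *MAP2* by -0.30 (standard error 0.08, adjusted p = 0.0288), both known from axons and dendrites, while *MAP4*, the form of most tissues, changed by 0.21 (standard error 0.04, adjusted p = 0.00565, all in the edgeR quasi-likelihood test). The remaining called gene of that list, *STMN1*, which binds free tubulin dimers, changed by -0.20 and is named after its value was seen. The motor genes *KIF5C*, *KIF1B* and *DYNLL1* changed by -0.45, -0.25 and -0.16 in RCH-ACV (adjusted p-values 0.00518, 0.0355 and 0.0393), and *KIF11*, a spindle motor also named after its value was seen, by 0.12 in REH (adjusted p = 0.0284, all in the edgeR quasi-likelihood test), a call that DESeq2 did not make. In RCH-ACV, where DESeq2 called 6 of the 98 listed genes, its result for each named gene is not given here.

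Marker lists also moved with the siRNA. Of 12 proliferation markers, 3 were called in REH, beside 4.65% of all genes, all higher, with *MKI67* at 0.25, *AURKB* at 0.18 and *TOP2A* at 0.12. The summed level of the 12 was 5171 to 5234 CPM with *SOX11* siRNA and 4864 to 4886 CPM with control siRNA in REH, and in 697 and RCH-ACV the groups overlapped. Of the B-cell precursor markers, 2 were higher and 1 lower among 8 tested in REH, beside 4.65% of all genes. In 697 1 of 9 was lower, beside 0.559% of all genes, and in RCH-ACV 3 of 9 were higher, beside 7.51%. *MME*, a surface peptidase, rose by 0.36 in REH, at a mean of 1289 CPM, and by 0.56 in RCH-ACV, at a mean of 12.7 CPM, on the log2 scale. The sum of the B-cell precursor markers in REH, given below, therefore holds a large part of *MME*. *CD79A*, a part of the B-cell receptor, rose by 0.13 in REH and by 0.46 in RCH-ACV, and *EBF1*, a B-lineage transcription factor, changed by -0.13 in REH and by -0.34 in 697. The summed level of the 9 was 4544 to 4624 CPM with *SOX11* siRNA and 4128 to 4288 CPM with control siRNA in REH, 2277 to 2357 against 2508 to 2538 CPM in 697, and 2282 to 2406 against 2220 to 2292 CPM in RCH-ACV. Of 5 myeloid markers, 1 was tested in each line, and *MPO*, a granule enzyme, changed by -0.78 in REH. The 5 summed to 8.83 to 10.1 CPM with *SOX11* siRNA and 14.1 to 15.7 CPM with control siRNA there, with *ELANE* at 0. In 697 they summed to 3.37 to 4.64 CPM with *SOX11* siRNA and 2.35 to 4.05 CPM with control siRNA. In RCH-ACV it was 23.6 to 29.3 CPM and 27.0 to 31.0 CPM, and *CSF1R* reached 30.4 CPM over the 18 samples. The part of these differences in the values of the tubulin genes was not tested.

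The genes whose pattern over the 18 samples was most like that of *TUBA1A* were found by the root mean square difference of log2 CPM after centring each gene on its mean, among 13323 genes outside the family with a mean of at least 1 CPM. The nearest were *TLE1* (0.07), a Groucho-family corepressor, *GADD45A* (0.09), a stress-response gene, *MAP4K4* (0.10), a kinase, *HIGD2A* (0.11), a mitochondrial protein, and *ZSCAN2* (0.11), a zinc finger gene. *TLE1* itself had log2 fold changes of -0.13 for REH, -0.28 for 697 and -0.34 for RCH-ACV. Since the measure uses the same samples, the siRNA values of these genes are a description.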

How the data were processed

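The authors deposited 1 table of raw read counts per cell line, as whole-number counts per RefSeq transcript without normalization. Per the labels and the study's methods, poly(A) RNA libraries were sequenced, reads were checked with FastQC 0.10.1, trimmed, aligned to hg19 with STAR 2.5.3a and counted with HOMER, and reads aligning to more than 2 places were discarded. Read length, strand setting and mapping-quality filter are not given in the sources used here.

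Of 50678 transcripts 98.0% matched a symbol, and each gene was represented by its transcript with the largest sum over the 18 samples. The tables hold 0 columns of other samples. Replicates differed beyond sampling noise (chi-square per degree of freedom 1.3 to 5.18). The tubulin genes and all gene lists were chosen with earlier results of these data known. Named were all 10 tubulin genes, *SOX11*, the 3 called genes with the largest log2 fold change per list (mean of at least 1 CPM) and the 5 genes most like *TUBA1A*.

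Counts were fitted with edgeR 4.0.16 (R 4.3.3) by TMM, filterByExpr and the two-sided quasi-likelihood F-test, for each line alone, for the 9 control samples, and over the 18 samples for the interaction, with Benjamini-Hochberg adjustment. The fits were run on simulated counts with 200 genes changed by 1 on the log2 scale, more than any siRNA change of a tubulin gene here. How well smaller changes are found was not tested. Some sequences are not reported here. RPKM used lengths of GENCODE MANE Select transcripts. Alternatives were scaling by RLE or by library size alone, DESeq2 1.42.0, other filters on low counts, the replicate number as a block, other transcripts, 1 joint fit, and leaving out each sample. Windows and plots used Python 3.11.15 and matplotlib 3.10.9.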

Additional observations from a re-analysis of the deposited data

How the results depend on the processing

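The tubulin genes called with *SOX11* siRNA numbered 1 for REH, 1 for 697 and 2 for RCH-ACV. *TUBA1A*, on which the family was picked, is in each number, so they are a description and support nothing about it. In REH the number was 0 with DESeq2 and with 1 fit over the 18 samples, and in 697 it was 0 with library size alone and with the replicate block. Leaving out 1 sample at a time gave numbers from 0 to 1 for REH, 0 to 1 for 697 and 2 to 3 for RCH-ACV, 8 to 9 for the control levels of REH against 697 and against RCH-ACV, and 2 to 4 for 697 against RCH-ACV. *TUBB3* in RCH-ACV passed in all 8 other settings (log2 fold change -0.61 to -0.59) and with each sample left out (-0.71 to -0.48), and *TUBA4A* in RCH-ACV reached 0.45 (adjusted p = 0.0249 in the edgeR quasi-likelihood test) without *SOX11* siRNA replicate 3.

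The number of all genes called moved more. It was 594 for REH, 68 for 697 and 973 for RCH-ACV, against 315 in REH and 577 in RCH-ACV with DESeq2, 228 in REH and 189 in 697 with 1 fit over the 18 samples, 119 in 697 with no filter on low counts, and 1513, 227 and 2597 with all transcripts kept apart, where a gene counts several times. Leaving out 1 sample at a time gave 296 to 522 for REH, 25 to 70 for 697 and 386 to 2479 for RCH-ACV, the last without *SOX11* siRNA replicate 3. With the replicate block 29 genes were called in 697. The numbers were taken not to pair the samples, since deviations of same-numbered samples correlated between -0.20 and 0.21 and only 1 of 9 pairs exceeded 0.1. The paired fit changed no call of the siRNA effect among the other tubulin genes.

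Values near 0 changed sign. *TUBB6* in 697 was 0.0016 with RLE size factors, 0.0063 with library size alone, 0.0016 with DESeq2 and 0.0089 with no filter. *TUBB4B* was 0.00065 in 697 with no filter and -0.00024 in RCH-ACV with transcripts kept apart. With each sample left out, REH values ran from -0.0032 to 0.030 for *TUBB* and -0.032 to 0.087 for *TUBB4B*. Those in 697 ran from -0.008 to 0.035 for *TUBA1B*, -0.0017 to 0.104 for *TUBA1C*, -0.061 to 0.0022 for *TUBB*, -0.0081 to 0.235 for *TUBB2A*, -0.085 to 0.093 for *TUBB4B* and -0.032 to 0.034 for *TUBB6*. Those in RCH-ACV ran from -0.033 to 0.029 for *TUBA1C*, -0.0048 to 0.039 for *TUBB* and -0.029 to 0.025 for *TUBB4B*. Between control samples, *TUBA1A* in REH against 697 was 0.029 with library size alone, and *TUBA1C* in 697 against RCH-ACV ran from -0.083 to 0.024 with each sample left out. The number of tubulin genes that differed between 697 and RCH-ACV was 3, and 6 with library size alone. With that scaling *TUBA1B* (-0.123, adjusted p = 0.00079), *TUBB* (-0.082, adjusted p = 0.0228), *TUBB4B* (-0.192, adjusted p = 0.0236) and *TUBB6* (-0.155, adjusted p = 0.035) passed. *TUBB2A* did not (adjusted p = 0.0834, all in the edgeR quasi-likelihood test). *TUBB2A* was the call there that most alternatives lost, with adjusted p-values from 0.0441 to 0.189 (edgeR's quasi-likelihood test and DESeq2). With 3 samples per group, the depth limits *TUBB2A*, *TUBB3* in 697 and *TUBA4A* most, and *TUBB2B* and, in REH, *TUBB3* and *TUBB6* could not be tested, although the *TUBB6* transcript NM_001303525 had a log2 fold change of -0.01 in REH. Without length, the *TUBA1A* share of alpha-tubulin in 697 with *SOX11* siRNA was 10.1%.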
